A study of Homo sapiens with 6 samples.

Results

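Matrix metalloproteinases (MMPs) and their tissue inhibitors (TIMPs) were followed in KYSE510 cells after an shRNA knockdown made to induce R-loops. The set held 10 genes, 8 MMPs (MMP1, MMP2, MMP7, MMP9, MMP10, MMP13, MMP14 and MMP15) and 2 TIMPs (TIMP1 and TIMP2), picked by symbol from a table of 62700 genes. Another 17 MMP and TIMP genes of the same table served as the rest of the family. KYSE510 is an established cell line from a squamous cell carcinoma of the oesophagus, and all cultures were kept in a medium with fetal bovine serum. There were 3 libraries per group: shControl carried a control shRNA (genotype given as WT), and in shRNH1 the shRNA was directed at a ribonuclease gene written RNH1 in the labels (genotype given as RNH1 knockdown). The knockdown is labelled as a single shRNA group, with no rescue and no other shRNA among the samples, and the replicates are called biological without a word on separate cultures, so every p-value rests on the spread among these 6 libraries, part of which may be technical. RNA came from whole cultures, so a change in every cell and a change in the share of cells with the transcript cannot be told apart.

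MMPs are zinc endopeptidases that cut collagens, laminins and other matrix proteins. They are made as proenzymes whose propeptide must be removed, by proprotein convertases for the membrane-type enzymes and often by serine proteinases or other MMPs for the secreted ones. TIMPs bind the active site one to one and block it, and TIMP2 also takes part, at the cell surface, in the activation of the MMP2 proenzyme by MMP14. Several secreted MMP genes carry AP-1 sites near their starts and respond to growth factor and cytokine signalling, and squamous carcinomas are known for expressing collagenases and stromelysins at their invasive edge.

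Promoters are shown first because MMP7, MMP10 and MMP15 represent 3 different outcomes in these libraries, a low gene with no detectable difference, a low gene that rose, and an abundant gene that rose. Sequences are from RefSeq on GRCh38.p14, which had an entry for 5 of the 10 genes (MMP7, MMP10, MMP14, MMP15 and TIMP1), and each covers the 250 bases before the annotated start, 5′ to 3′ on the gene's strand. The RefSeq starts of MMP7, MMP14, MMP15 and TIMP1 lie inside the GENCODE gene spans given with the genes. The MMP15 window ends at base 58025753 and the GENCODE span begins at 58025566, so most of that window lies within the span. Capitals mark matches on either strand to 3 motifs, none of which overlapped another. The AP-1 motif was searched as TGANTCA. For the ETS family the letters were AGGAAG. The TATA box was taken as TATAAA.
MMP10, chr11:102780629-102780878, minus strand: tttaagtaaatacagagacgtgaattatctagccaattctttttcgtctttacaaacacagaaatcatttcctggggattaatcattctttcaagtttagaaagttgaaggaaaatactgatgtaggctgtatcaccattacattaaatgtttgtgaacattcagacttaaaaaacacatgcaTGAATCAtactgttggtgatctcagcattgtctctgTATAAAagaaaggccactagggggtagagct
MMP7, chr11:102530748-102530997, minus strand: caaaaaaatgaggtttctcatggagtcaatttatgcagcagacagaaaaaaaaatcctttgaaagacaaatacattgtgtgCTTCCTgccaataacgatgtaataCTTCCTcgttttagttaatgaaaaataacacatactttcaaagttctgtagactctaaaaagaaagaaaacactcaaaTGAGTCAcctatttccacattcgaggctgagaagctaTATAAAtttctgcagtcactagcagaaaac
MMP15, chr16:58025504-58025753, plus strand: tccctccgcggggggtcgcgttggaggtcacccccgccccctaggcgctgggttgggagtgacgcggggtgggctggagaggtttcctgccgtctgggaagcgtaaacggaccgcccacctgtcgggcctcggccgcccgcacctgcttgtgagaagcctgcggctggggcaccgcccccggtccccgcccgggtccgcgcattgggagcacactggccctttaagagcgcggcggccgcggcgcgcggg
MMP10 held an AP-1 match (TGAATCA) 67 to 61 bases before its start and a TATA match 31 to 26 bases before it. MMP7, its relative on the same chromosome arm, held an AP-1 match (TGAGTCA) at the same 67 to 61 bases and a TATA match at 30 to 25, and besides them ETS matches (CTTCCT, the reverse complement) at 169 to 164 and 145 to 140. MMP15 had 0 matches to the 3 motifs and a GC content of 74.8%, against 34.4% for MMP10 and 33.6% for MMP7. MMP14 also had 0 matches, and TIMP1 had an ETS match at 87 to 82 bases before its RefSeq start. That match lies inside the GENCODE span of TIMP1, which begins at 47582313, while the window ends at 47582435. Among all 35116 promoters of that table, 6.57% held the AP-1 motif, 28.7% the ETS motif and 10.7% the TATA motif in the same window. A match is a description of the letters in this window and no evidence of binding.

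Library totals ran from 40225486 to 41103220 counts in shControl and from 31394687 to 33421217 in shRNH1, so depth differed with the group. RNASEH1, the ribonuclease gene that cuts RNA in RNA:DNA hybrids, had 1357, 1344 and 1015 counts in shControl and 251, 247 and 232 in shRNH1 (log2 fold change -2.14, SE 0.116, edgeR adjusted p = 1.61e-13), whereas the inhibitor gene whose approved symbol is RNH1 had a log2 fold change of -0.19 (SE 0.112, edgeR adjusted p = 0.221). Squamous and epithelial markers moved both ways, SOX2 rising (log2 fold change 2.68) and the keratins KRT5, KRT14 and KRT6A falling (-1.33, -1.40 and -2.13; largest edgeR adjusted p of the 4 genes 5.69e-09). The squamous regulator TP63 was at 53.2 ± 3.64 and 52.5 ± 4.38 CPM (SD, n = 3 each), and all 11 squamous and epithelial markers passed the filter on low counts. Several defining markers of other cell types were absent, but not all markers of those lists were low. Fibroblast markers DCN, FAP and COL1A2 had 0 counts in all 6 libraries, as did the endothelial markers KDR and EMCN and the B cell marker MS4A1. Summed over 10 markers, the fibroblast list was at 63.2 to 72.7 CPM in shControl and 112 to 134 in shRNH1, nearly all of it COL1A1, which rose from 62.5 ± 5.005 to 123 ± 12.5 CPM (SD, n = 3 each), while PDGFRB fell (-0.91). The leukocyte list of 10 was at 6.01 to 7.57 and 8.18 to 10.5 CPM and the endothelial list of 7 at 21.8 to 24.3 and 21.3 to 22.6 CPM, most of it CDH5 at 15.5 ± 1.07 and 12.9 ± 0.918 CPM (SD, n = 3 each). ITGAM, an integrin of myeloid cells, rose from 4, 7 and 7 counts to 24, 24 and 29, and PTPRC, the pan-leukocyte gene, had at most 1 count in shControl and 6, 8 and 11 in shRNH1. The part of these markers in the MMP results was not tested. Of the 4 tested endothelial markers PECAM1 had a log2 fold change of 0.51 (edgeR adjusted p = 0.0234), CDH5 -0.26, CLDN5 -0.37 and VWF -0.42 (edgeR adjusted p 0.0838, 0.344 and 0.431). The PECAM1 call did not hold with DESeq2, with the expression level offset or without shControl replicate 2 or 3 or shRNH1 replicate 1 (0.32, edgeR adjusted p = 0.233, without the last).

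MMP1, MMP10, MMP13 and MMP15 rose in shRNH1 cells, by 2.11-fold, 3.96-fold, 4.16-fold and 1.54-fold, while TIMP1 and TIMP2 stayed within the spread between libraries. Of the 10 genes, 8 passed the filter on low counts (about 10 counts in at least 3 libraries), and of these 4 were higher and 0 lower at an adjusted p under 0.05 in edgeR's quasi-likelihood test, fitted on all 19682 genes that passed. At an unadjusted p under 0.05 the counts were 4 higher and 1 lower, and DESeq2 and limma-voom each called 4 higher and 0 lower. Over all genes tested 27.6% passed, 15.3% as higher (3006 genes) and 12.3% as lower (2418), and with library size alone in place of TMM the split was 4065 higher and 1433 lower. The same shares were 20.3% higher and 17.0% lower at an unadjusted p under 0.05, 11.9% and 11.8% with DESeq2, and 15.3% and 12.4% with limma-voom. The median log2 fold change of the 8 genes was 0.37, against 0.02 over all genes tested. Neither the count of 4 higher nor this median can serve as support on its own. Both include MMP10 and MMP13, which passed the filter through the shRNH1 libraries alone, with 0 of 3 shControl libraries above its level of 0.272 CPM.

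**Figure D1:**
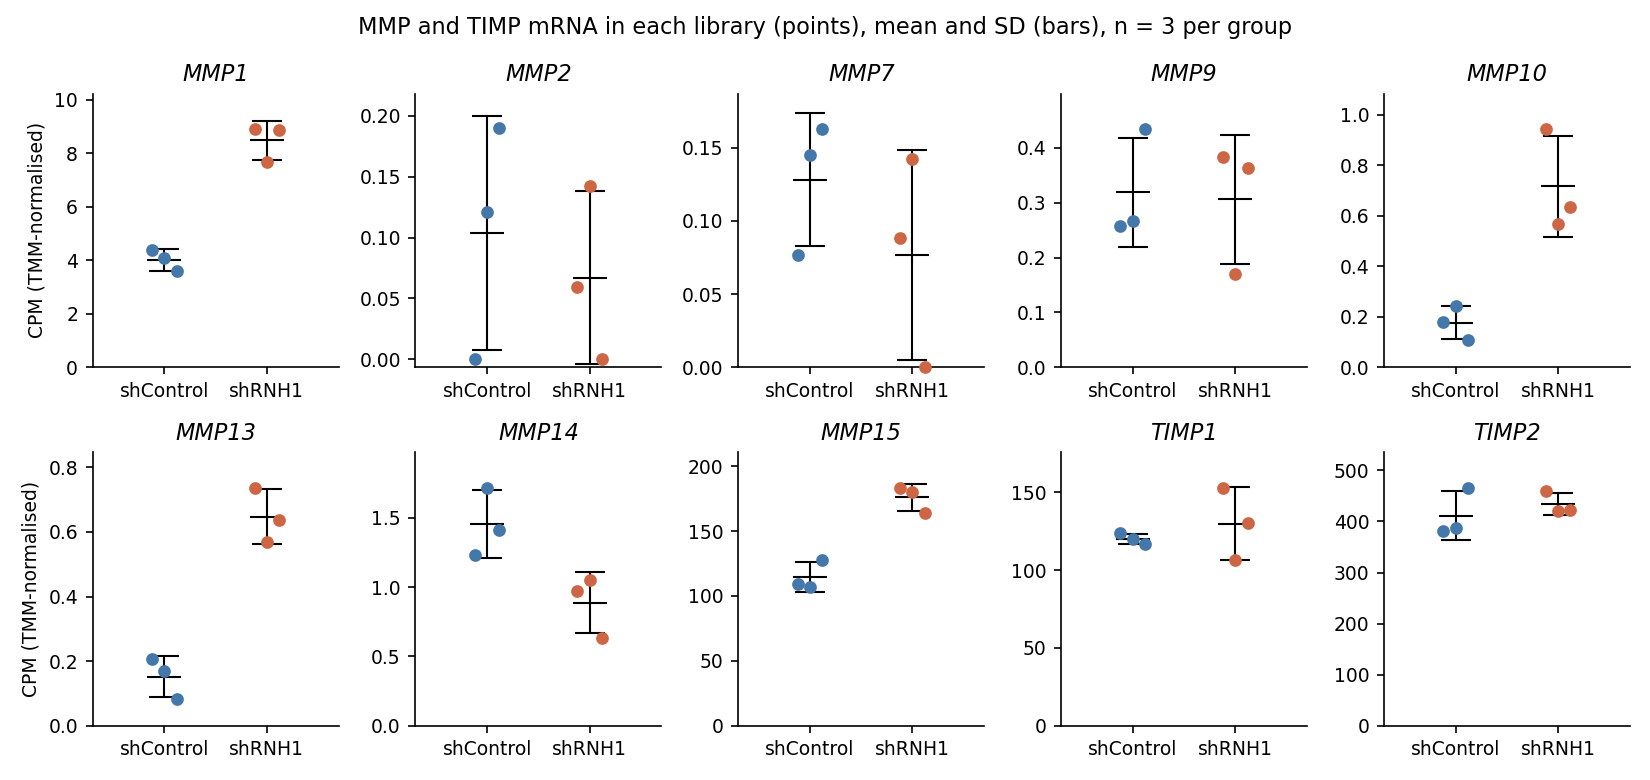
TMM-normalised CPM (vertical axes, linear, each with its own scale) of the 10 MMP and TIMP genes in the 3 shControl and 3 shRNH1 libraries; points are libraries and black marks the mean and SD. For MMP1, MMP10, MMP13 and MMP15 every shRNH1 library lies above every shControl library, for MMP14 every one lies below, and for the other 5 genes the groups overlap.

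The collagenases cut fibrillar collagen. MMP1 (ENSG00000196611; GRCh38 chromosome 11, 102789920 to 102798160, minus strand), the interstitial collagenase, was counted 171, 169 and 132 times in shControl, and 302, 269 and 293 times in shRNH1 despite the smaller totals there. Normalised for library size by TMM, MMP1 stood at 4.39, 4.09 and 3.58 CPM (counts scaled to a library of standard size) for shControl, rising to 8.91, 7.66 and 8.88 for shRNH1. The lowest shRNH1 library lay well above the highest shControl library. The log2 fold change was 1.07 (SE 0.147, 95% interval 0.77 to 1.38; edgeR adjusted p = 2.8e-06). MMP13 (ENSG00000137745; chromosome 11, 102942995 to 102955734, minus strand), collagenase 3, was scarce, with 8, 7 and 3 counts in shControl and 25, 20 and 21 in shRNH1. That is 0.206, 0.169 and 0.0814 CPM against 0.737, 0.570 and 0.637, again with no overlap. The log2 fold change of MMP13 was 2.06 (SE 0.495, 95% interval 1.04 to 3.07; edgeR adjusted p = 0.00239), so few counts left its size uncertain between 2.05-fold and 8.41-fold.

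MMP10 (ENSG00000166670; chromosome 11, 102770503 to 102780628, minus strand), stromelysin-2, degrades proteoglycans, laminin and fibronectin and can activate other MMP proenzymes. It had 7, 10 and 4 counts in shControl and 32, 20 and 21 in shRNH1. Scaled to CPM, MMP10 went from 0.180, 0.242 and 0.109 to 0.944, 0.570 and 0.637. All shRNH1 libraries were higher than all shControl libraries, with shRNH1 replicate 1 the highest. The log2 fold change was 1.99 (SE 0.480, 95% interval 1.00 to 2.97; edgeR adjusted p = 0.00246). With no filter on low counts, where the group means play no part in which genes are tested, MMP10 and MMP13 had log2 fold changes of 1.98 and 2.05. Their edgeR adjusted p there were 0.00105 and 0.00147. The intervals of that fit are those of a normal distribution, so it made no allowance for uncertainty in the spread between libraries. The SE of MMP10 was larger in it (0.501 against 0.480), so its smaller adjusted p values are not stronger evidence. MMP7 (ENSG00000137673; chromosome 11, 102520508 to 102530753, minus strand), matrilysin, an epithelial MMP without the hemopexin domain, had 3, 6 and 6 counts in shControl and 3, 5 and 0 in shRNH1. It did not pass the filter, and with no filter its log2 fold change was -0.70 with an interval of -2.70 to 1.29, so a difference was not detectable at this depth.

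The gelatinases MMP2 and MMP9, which cut denatured collagen and basement membrane collagen IV, were at the edge of detection. MMP2 (ENSG00000087245; chromosome 16, 55389700 to 55506691, plus strand) had 0, 5 and 7 counts in shControl and 2, 5 and 0 in shRNH1. MMP9 (ENSG00000100985; chromosome 20, 46008908 to 46016561, plus strand) had 10, 11 and 16 counts in shControl and 13, 6 and 12 in shRNH1. Its CPM averaged 0.319 ± 0.0998 and 0.306 ± 0.117 (SD, n = 3 each). In both genes the groups overlapped. The log2 fold change of MMP9 was -0.06 (95% interval -1.10 to 0.98; edgeR adjusted p = 0.951), which leaves room for a 1.97-fold rise. MMP2, tested without the filter, gave -0.59 with an interval of -2.77 to 1.60. The antisense gene SLC12A5-AS1, on the opposite strand of MMP9, covers 18.4% of the MMP9 exon bases, and it rose from 9, 6 and 5 counts to 22, 25 and 31 (log2 fold change 2.14, edgeR adjusted p = 9.58e-04). Its shControl counts all lay under the filter's level of about 10 counts. SLC12A5-AS1 was thus tested through the shRNH1 libraries alone, and its call cannot serve as support on its own. No source used here states whether counting used strand, so reads in that stretch could not be assigned to either gene.

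The membrane-type MMPs are anchored in the plasma membrane, and of the 2 in the set MMP15 rose while MMP14 did not pass the test. MMP15 (ENSG00000102996; chromosome 16, 58025566 to 58046901, plus strand), the second membrane-type MMP described, was the MMP of the set with the highest level, at 109, 107 and 128 CPM in shControl and 184, 181 and 164 in shRNH1. Every shRNH1 library lay above every shControl library. It rose by a log2 fold change of 0.62 (SE 0.0956, 95% interval 0.43 to 0.82; edgeR adjusted p = 1.6e-05). MMP14 (ENSG00000157227; chromosome 14, 22836557 to 22849027, plus strand), the membrane-type collagenase that activates the MMP2 proenzyme, had 48, 71 and 52 counts in shControl and 33, 37 and 21 in shRNH1. Scaled to CPM this was 1.23, 1.72 and 1.41 against 0.973, 1.05 and 0.637, with all shRNH1 libraries lower. The log2 fold change of MMP14 was -0.71 (SE 0.300, 95% interval -1.32 to -0.09) and did not pass edgeR's test (adjusted p = 0.0812). With an offset for expression level it passed narrowly (-0.80, edgeR adjusted p = 0.0488), and without shRNH1 replicate 3 the value was -0.52 (edgeR adjusted p = 0.297).

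The inhibitors were the most abundant members per kilobase of exon. TIMP1 (ENSG00000102265; chromosome X, 47582313 to 47586789, plus strand), a secreted inhibitor of most soluble MMPs, was at 124, 120 and 117 CPM in shControl and 153, 107 and 130 in shRNH1. The shRNH1 libraries spread on both sides of the shControl libraries. Its log2 fold change was 0.11 (SE 0.106, 95% interval -0.10 to 0.33; edgeR adjusted p = 0.476). TIMP2 (ENSG00000035862; chromosome 17, 78852977 to 78925387, minus strand) was at 381, 387 and 466 CPM in shControl and 459, 421 and 423 in shRNH1. These ranges overlapped too, and the log2 fold change was 0.08 (SE 0.0994, 95% interval -0.13 to 0.28; edgeR adjusted p = 0.614). The upper limits of these intervals correspond to a 1.26-fold rise of TIMP1 and a 1.22-fold rise of TIMP2, so a change as large as the 1.54-fold one of MMP15 lay outside both intervals. Of the 8 tested members, CPM of the groups did not overlap in 5, 4 higher and 1 lower in shRNH1, beside 40.0% of all genes tested (21.4% higher and 18.6% lower). The 4 higher include MMP10 and MMP13, which passed the filter through the shRNH1 libraries alone, so this count cannot serve as support on its own either.

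**Figure D2:**
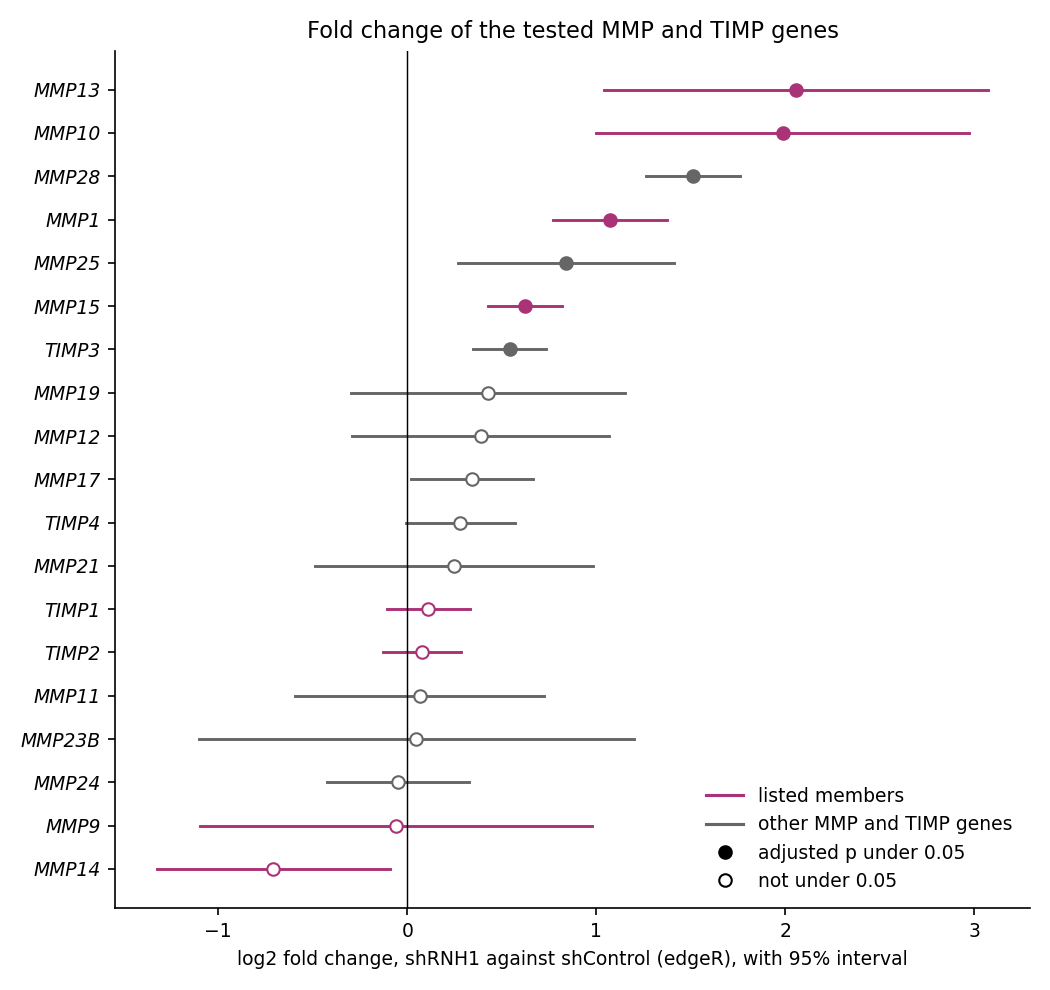
Log2 fold change of shRNH1 against shControl (horizontal axis) with its 95% interval for the 19 MMP and TIMP genes that passed the filter on low counts; filled points had an edgeR adjusted p under 0.05. MMP13, MMP10, MMP28, MMP1, MMP25, MMP15 and TIMP3 lie above 0 and are filled, and MMP14 is the lowest and is open.

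Levels were compared between genes per kilobase of summed exons (FPKM, from TMM-normalised CPM). In shControl the order was TIMP1 (77.99 ± 2.16 FPKM), TIMP2 (73.0 ± 8.46), MMP15 (25.9 ± 2.60), MMP1 (2.04 ± 0.208), MMP14 (0.326 ± 0.0549), MMP9 (0.137 ± 0.0427), MMP10 (0.101 ± 0.0380), MMP7 (0.0553 ± 0.0195), MMP13 (0.0537 ± 0.0225) and MMP2 (0.0210 ± 0.0195; SD, n = 3 for each). TIMP1 and TIMP2 overlapped, as did each neighbouring pair from MMP9 down to MMP2, whereas the steps from TIMP2 to MMP15, MMP1, MMP14 and MMP9 did not. In shRNH1 TIMP1 (84.3 ± 15.1 FPKM) and TIMP2 (77.1 ± 3.88) again overlapped and MMP15 (39.8 ± 2.37) followed. There MMP10 (0.408 ± 0.114) and MMP13 (0.229 ± 0.0298) stood next after MMP1 (4.31 ± 0.362), and MMP14 (0.199 ± 0.0496) came after them. MMP13 and MMP14 overlapped there, so their order was not resolved, and so did MMP14 and MMP9 (0.131 ± 0.0503) and, at the bottom, MMP7 (0.0331 ± 0.0309) and MMP2 (0.0136 ± 0.0145).

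**Figure D3:**
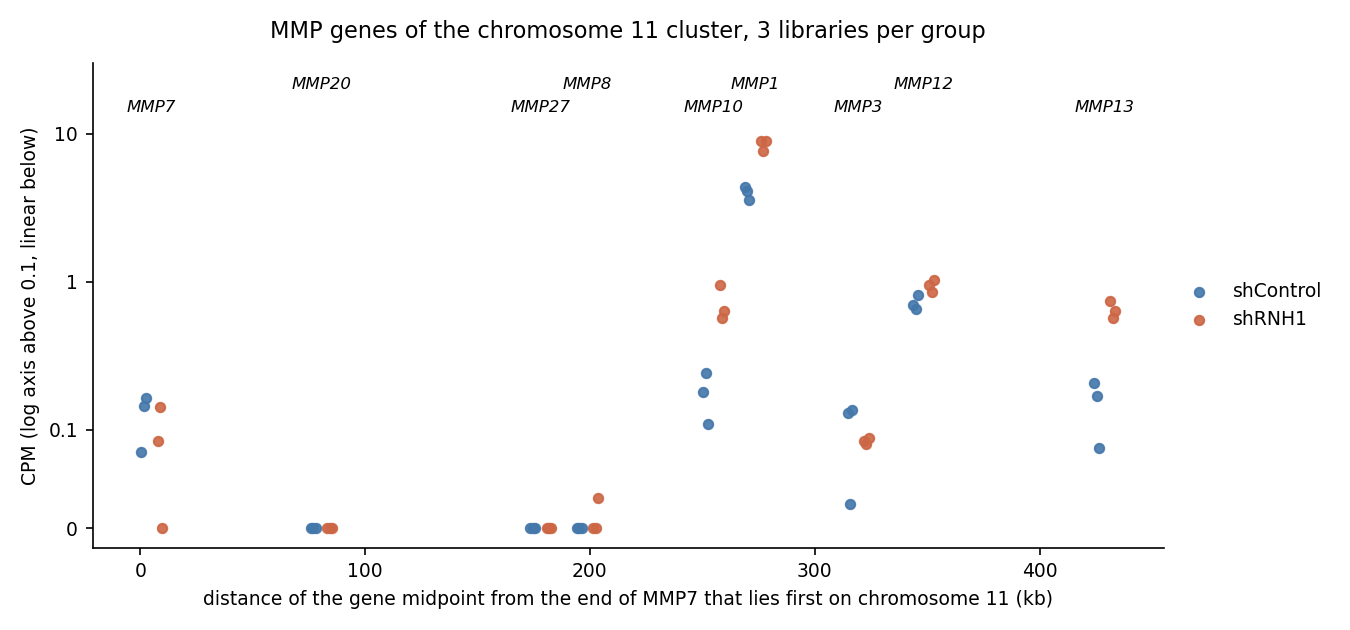
CPM (vertical axis, logarithmic above 0.1 and linear below) of the 9 MMP genes of the chromosome 11 cluster in each of the 3 shControl and 3 shRNH1 libraries. Genes are placed by the distance of their midpoint from the end of MMP7 that lies first on chromosome 11 (horizontal axis, kb). Points of a gene are spread sideways to be visible. The groups separate at MMP10, MMP1, MMP12 and MMP13, and MMP20 and MMP27 are at 0 in every library.

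MMP1, MMP7, MMP10 and MMP13 lie in a cluster of 9 MMP genes that spans 435.2 kb of chromosome 11, all on the minus strand. Detection in it was patchy. MMP20 and MMP27 had 0 counts in all libraries and MMP8, the neutrophil collagenase, had a single count in shRNH1 replicate 3. MMP3, stromelysin-1, which lies between MMP1 and MMP12, had 5, 1 and 5 counts in shControl and 3 in each shRNH1 library. MMP12, the macrophage elastase, had 27, 27 and 30 counts in shControl and 32, 30 and 34 in shRNH1, with a log2 fold change of 0.39 (95% interval -0.29 to 1.07; edgeR adjusted p = 0.428). So the genes of the cluster with an adjusted p under 0.05 were MMP10, MMP1 and MMP13, which are not all next to each other, since MMP3 and MMP12 lie between MMP1 and MMP13. Whether the fold of these genes differs from that of MMP12 was not tested. MMP10 and MMP3 are close relatives, and 3.36% of the 50-base stretches of MMP10 transcripts in GENCODE 29 also occur in MMP3 transcripts, while for MMP13 the share found in any other gene was 0%. The pseudogene WTAPP1 lies on the opposite strand and covers 7.61% of the MMP1 exon bases, and it had 0, 9 and 1 counts in shControl and 11, 6 and 6 in shRNH1, few beside the 132 to 302 of MMP1.

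The rest of the family held 17 genes, of which 11 passed the filter, 3 rose and 0 fell by edgeR's test, 27.3% of those tested beside 27.6% of all genes. At an unadjusted p under 0.05 these counts were 4 and 0, and limma-voom called 3 and 0 and DESeq2 2 and 0. MMP28, epilysin, an MMP of keratinocytes and other epithelia, showed the clearest rise, from 321, 344 and 403 counts to 854, 1008 and 806. In CPM it went from 9.17 ± 1.53 to 26.1 ± 2.28 (SD, n = 3 each), a log2 fold change of 1.51 (SE 0.121; edgeR adjusted p = 3.05e-10). TIMP3, the inhibitor that binds the matrix and also blocks ADAM17, rose from 92.8 ± 7.99 to 135 ± 9.08 CPM (SD, n = 3 each), a log2 fold change of 0.54 (SE 0.0943; edgeR adjusted p = 7.86e-05). MMP25, a membrane-type MMP known from leukocytes, had 39, 35 and 39 counts in shControl and 46, 69 and 62 in shRNH1, a log2 fold change of 0.84 (edgeR adjusted p = 0.0242). The call on MMP25 did not hold with DESeq2 (adjusted p = 0.0567), with the expression level offset (0.0521 in edgeR) or without shControl replicate 1 or 2 or shRNH1 replicate 2 or 3 (edgeR adjusted p 0.0528 to 0.086), and MMP25-AS1 on the opposite strand covers 35.2% of its exon bases.

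The other tested family members did not pass. Values were 0.43 for MMP19, 0.34 for MMP17, 0.28 for TIMP4, 0.25 for MMP21, 0.07 for MMP11, 0.05 for MMP23B and -0.05 for MMP24 as log2 fold changes, with edgeR adjusted p from 0.111 for MMP17 to 0.963 for MMP23B. MMP17 passed without shControl replicate 3 (0.53, edgeR adjusted p = 0.0108), and MMP17 and TIMP4 passed with library size alone (0.47 and 0.39; edgeR adjusted p = 0.0375 and 0.0471). MMP23B shares 38.02% of its 50-base stretches with MMP23A, its near copy, so its counts are uncertain. MMP16 and MMP26 had 1 count and 0 counts over all libraries.

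**Figure D4:**
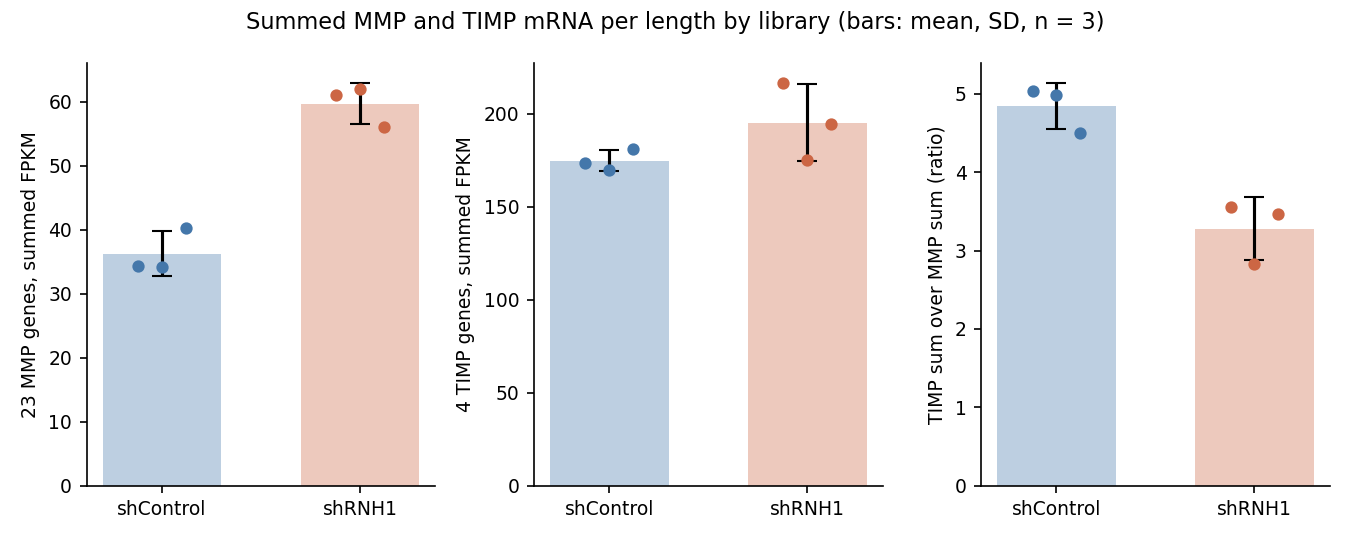
Summed FPKM of the 23 MMP genes (left), of the 4 TIMP genes (middle) and their ratio (right) in each library (points), with the mean (bars) and SD. The MMP sum lies higher and the TIMP to MMP ratio lower in all 3 shRNH1 libraries, and the TIMP sums of the groups overlap.

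Added over all 23 MMP genes, MMP mRNA stood at 34.4, 34.1 and 40.3 FPKM in shControl and at 61.0, 62.0 and 56.0 in shRNH1. MMP15 alone made up 71.4 ± 0.543% of that sum in shControl and 66.7 ± 1.21% in shRNH1, and MMP28 8.81 ± 0.607% and 15.3 ± 0.869% (SD, n = 3 each). MMP1, MMP10 and MMP13 together contributed 2.20 ± 0.257 and 4.94 ± 0.471 FPKM, so the sum is mostly a statement on MMP15 and MMP28. The 4 TIMP genes added up to 173, 170 and 181 FPKM in shControl and 217, 175 and 194 in shRNH1. TIMP mRNA exceeded MMP mRNA in every library, 5.04-fold, 4.98-fold and 4.50-fold in shControl and 3.55-fold, 2.82-fold and 3.47-fold in shRNH1. The ratio was thus lower in all 3 shRNH1 libraries. These sums were made from genes chosen with earlier results known and carry no test, and they speak of mRNA, not of enzyme.

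Among genes that act on MMPs, 15 of 18 passed the filter, 7 rose and 2 fell by edgeR's test, 60.0% of those tested beside 27.6% of all genes, with a median log2 fold change of 0.09. PCSK5, a proprotein convertase, rose from 6.18 ± 0.696 to 18.7 ± 1.39 CPM (SD, n = 3 each; log2 fold change 1.598), and LCN2, which forms a complex with MMP9, from 0.673 ± 0.0510 to 4.16 ± 0.364 CPM (2.62). ST14, the membrane serine proteinase matriptase, rose by 0.76 on the log2 scale, HPN, the related hepsin, by 1.87 and the broad proteinase trap A2M by 1.66. The last 2 rose from low counts. HPN had 11, 19 and 8 in shControl and 34, 43 and 44 in shRNH1 (edgeR adjusted p = 5.28e-04). A2M had 26, 43 and 33 in shControl and 85, 114 and 83 in shRNH1 (edgeR adjusted p = 1.78e-05). BSG, a surface glycoprotein known to induce MMPs, rose by 0.42 on the log2 scale (1003 ± 55.2 to 1341 ± 51.5 CPM; SD, n = 3 each). RECK, a membrane-anchored MMP inhibitor, had a log2 fold change of 0.58 (edgeR adjusted p = 0.0362), a call that did not hold with DESeq2 (adjusted p = 0.0866), with the expression level offset (0.43, edgeR adjusted p = 0.130), with no filter (edgeR adjusted p = 0.0501) or without any 1 of shControl replicates 2 and 3 and shRNH1 replicates 1 and 3. PLAU, the urokinase that starts plasmin formation, had a log2 fold change of -0.43 (edgeR adjusted p = 0.0367), which did not pass with library size alone, with DESeq2 or without any 1 of the shControl libraries or shRNH1 replicate 1. FURIN, the convertase best known for membrane-type MMPs, was at 297 ± 48.1 and 294 ± 22.2 CPM (SD, n = 3 each; log2 fold change -0.01, 95% interval -0.23 to 0.21).

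Related metalloproteinases were the ADAM and ADAMTS genes. Of 9 ADAM genes, which shed membrane proteins, 7 were tested, 1 rose and 1 fell, 28.6% beside 27.6% of all genes tested. ADAM8 fell from 103 ± 10.6 to 34.3 ± 5.09 CPM (SD, n = 3 each; log2 fold change -1.59, edgeR adjusted p = 1.71e-11), and ADAM10 had 0.33 (edgeR adjusted p = 0.0146), which did not pass without shControl replicate 2 or 3 or shRNH1 replicate 1 or 3 (0.26 to 0.34, edgeR adjusted p 0.0509 to 0.0951). Of 19 ADAMTS genes, secreted proteinases of proteoglycans and procollagens, 9 were tested, 6 rose and 0 fell. That was 66.7% of those tested, beside 27.6% of all genes tested (15.3% higher). At an unadjusted p under 0.05 in edgeR's test 2 were lower, beside 17.0% of all genes tested. ADAMTS4, an aggrecanase, had 23 counts in each shControl library and 87, 50 and 65 in shRNH1 (log2 fold change 1.74), and ADAMTS10 went from 1.63 ± 0.592 to 4.99 ± 1.12 CPM (SD, n = 3 each; 1.62). ADAMTS15 (1.69) and ADAMTS13 (1.11) had edgeR adjusted p of 0.0062 and 0.0105, but ADAMTS15 did not pass without shRNH1 replicate 1, nor ADAMTS13 without shControl replicate 1 or shRNH1 replicate 2. ADAMTS14 passed the filter through the shRNH1 libraries alone, with 12, 36 and 9 counts there. It is among the 6 that rose, so neither that count nor the 66.7% can serve as support on its own. The count of ADAMTS genes that rose was 3 without shControl replicate 1 and 3 without shRNH1 replicate 2. DESeq2 called 4 ADAMTS genes higher and 0 lower, beside 11.9% and 11.8% of all genes. With limma-voom 5 were higher and 0 lower, beside 15.3% and 12.4% of all genes.

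Transcription factors of the AP-1, ETS and RUNX families, which bind MMP promoters, were all expressed. By edgeR's test 6 of the 18 rose and 8 fell (77.8%), beside 15.3% higher and 12.3% lower of all genes tested (27.6%). FOSL1, the AP-1 subunit, fell from 143 ± 16.5 to 52.6 ± 4.15 CPM (SD, n = 3 each), by 1.44 on the log2 scale. The ETS genes ETV4 and ETS1 fell too, with log2 fold changes of -0.82 and -0.56 (edgeR adjusted p = 1.95e-07 and 4.24e-04), as did RUNX2 at -0.91. The remaining genes that fell were JUN (-0.48), ETV5 (-0.50), RUNX1 (-0.43) and ELK3 (-0.29). Others moved the opposite way, with FOS at 0.55, FOSL2 at 0.37, ETS2 at 0.42, ELF3 at 0.73, ETV1 at 0.48 and JUND at 0.41. DESeq2 called 5 of the 18 higher and 8 lower, beside 11.9% and 11.8% of all genes. MMP1, MMP10 and MMP13 therefore rose in the same libraries in which 8 of these factors were lower and 6 higher by edgeR's test. No link between these factors and the MMPs was tested. Matrix proteins, the substrates, had 14 of 16 tested, 4 higher and 7 lower (78.6%, beside 27.6% of all genes tested). SPARC, a collagen-binding matricellular protein, fell at -2.55, and COL1A1 at 0.98 and VTN at 1.19 rose (log2 fold changes; edgeR adjusted p from 1.51e-16 to 1.26e-07).

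**Figure D5:**
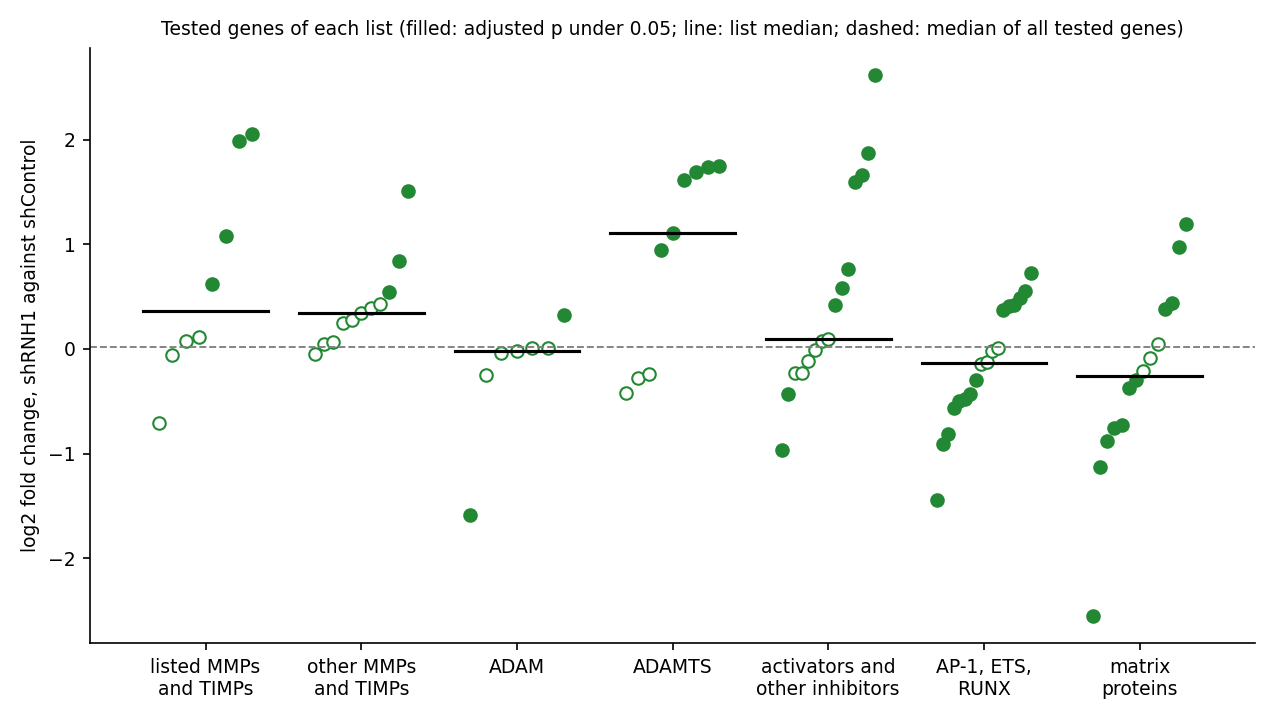
Log2 fold change of shRNH1 against shControl (vertical axis) for each tested gene of 7 lists, ordered by value within a list; filled points had an edgeR adjusted p under 0.05, black lines are list medians and the dashed line is the median of all genes tested. The listed MMPs and TIMPs have a median of 0.37, the ADAMTS genes 1.11, and the AP-1, ETS and RUNX factors spread on both sides of 0 with a median of -0.14. MMP10 and MMP13 in the first list and ADAMTS14 among the ADAMTS genes passed the filter through the shRNH1 libraries alone.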

How the data were processed

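The 6 libraries were described per the labels as poly(A)-selected total RNA, fragmented and primed at random. The authors deposited whole-number raw counts, one value per library for each of 62700 Ensembl gene IDs. GRCh38, HISAT2, StringTie and DESeq2 are named per the submitters' processing notes; for their versions and roles, the counter and the use of strand, "not given in the sources used here" applies. All 6 columns matched a sample description, and 0 were left over. Symbols were found for 62700 IDs, and positions and exon lengths came from GENCODE 29, which held 58207 of them, so the table's own annotation was another release.

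Counts were tested with edgeR 4.0.16 in R 4.3.3 (quasi-likelihood test, TMM, filterByExpr by group, no covariate, Benjamini-Hochberg adjustment over 19682 genes, threshold 0.05); all adjusted p are over all genes tested. Standard errors came from the F statistic. CPM use TMM factors, and FPKM divide them by summed exon length. Within each group, all replicate pairs differed beyond sampling noise (chi-square per gene 6.47 to 21.1). On data simulated for shRNH1 against shControl with 18804 genes tested, 53% of 1.5-fold and 67% of 2-fold changes were recovered. The simulation changed 200 genes drawn at random over all levels, whereas 5424 genes passed in the data. These rates therefore do not carry over to single members or to the adjusted threshold of the data. Alternatives were limma-voom (limma 3.58.1), DESeq2 1.42.0, scaling by DESeq2 size factors or by library size alone, other filters, a replicate block, an expression level offset (splines of 5 degrees of freedom, MASS 7.3.60.0.1), the longest transcript as length, and each library left out. All members are named, with RNASEH1, RNH1, every tested MMP and TIMP gene, RECK, BSG, FOSL1, ETS1, and of each other list up to 4 genes past the threshold with the smallest p, some of which are not reported here; further genes of these lists (FURIN, PLAU, HPN, A2M, ADAMTS14, FOS, FOSL2, ETS2, ETV1, JUND, TP63, CDH5, CLDN5, VWF and PTPRC) were named after their values were seen. The members and lists were chosen with earlier results of these data known.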

Additional observations from a re-analysis of the deposited data

How the results depend on the processing

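Of 109 recomputed fold changes of the tested members, 104 kept direction and side of the threshold. MMP14 passed with the expression level offset (-0.80), making 1 member lower. The sign turned, with no call, for MMP9 (0.0574 with library size alone, -0.253 to 0.235 with 1 library left out) and for TIMP1 (-0.0205 without shRNH1 replicate 1, 0.240 without shRNH1 replicate 2). MMP1 ranged from 0.94 to 1.18, MMP10 from 1.74 to 2.27, MMP13 from 1.77 to 2.32 and MMP15 from 0.56 to 0.74 (log2), called by edgeR, DESeq2 and limma-voom wherever tested (largest adjusted p 2.56e-04, 0.0381, 0.0253 and 8.43e-04). A filter of 1 CPM in 3 libraries left MMP9, MMP10 and MMP13 untested, so 2 members were higher. Among other genes, uncalled values also turned for MMP11 (-0.0118 with the expression level offset, -0.154 to 0.240 with 1 library left out), MMP23B (-0.139 with limma-voom, -0.0653 with the replicate block, -0.0281 with the offset, -0.898 to 0.471 with 1 library left out) and MMP24 (0.0599 with library size alone, -0.135 to 0.0923 with 1 library left out).

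With library size alone the median of all genes moved by 0.11 (log2), 1433 genes were lower against 2418, 5 of the other MMP and TIMP genes were higher against 3, and 1 of the genes acting on MMPs was lower against 2, as with DESeq2 (1) and with 1 library left out (1 to 3). ADAM genes that were lower numbered 2 with DESeq2 size factors, DESeq2 and the stricter filter, against 1, and those higher 0 to 1 with 1 library left out. ADAMTS genes that were lower numbered 2 with the expression level offset and 0 to 1 with 1 library left out, against 0, and those higher 3 to 6. With the longest transcript as length the TIMP to MMP ratio was 6.23 in shControl and 4.17 in shRNH1, against 4.84 and 3.28. The cause of these shifts was not tested. Same-numbered libraries did not deviate together (r 0.0454, 0.0563 and -0.0489), so the replicate block pairs them by number alone; with it 2938 genes were higher and 2156 lower. Depth limits MMP2, MMP7 and MMP9, with at most 16 counts in a library.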
